A study of Mus musculus with 4 samples.

Results

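The genes described here build, load and run the DNA replication machinery and make its nucleotides. They are 42 mouse genes listed by name, and a gene was taken as measured where a probe set carried that symbol alone in the platform annotation. Of the 42, 41 were measured, out of 12393 genes with such a probe set. Gins2 is the gene without one and was not analysed here. Where a gene had several probe sets, the one with the highest mean log2 value stands for it. RNA came from P19 cells, a mouse embryonal carcinoma line that takes a neural course when aggregated with retinoic acid, and was read on 1-colour Affymetrix arrays as intensity, a brightness with no absolute unit. The control was unmodified P19 cells. The cells compared with it carried human LIN28A under constitutive expression, a protein that binds let-7 precursor RNAs and stops their maturation. Both lines were aggregated in 5e-07 M all-trans retinoic acid and taken at 4 days, with 2 arrays a line, numbered 1 and 2. The promoter driving LIN28A, whether the line is 1 clone and whether the repeats were separate cultures are not stated in the labels. The p-values therefore speak of the spread among these 4 arrays, part or all of which may be technical. In RNA from a mixed aggregate, fewer cells of a type and less RNA per cell cannot be told apart.

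A genome is copied in steps that these genes divide among themselves. The origin recognition complex marks start sites in G1, and Cdc6 and Cdt1 place the ring-shaped Mcm2 to Mcm7 helicase there, while geminin holds Cdt1 back once copying has begun. Cyclin E with its kinase and the phosphatase Cdc25a drive entry into S phase, Cdc45 and GINS switch the helicase on, primase and polymerase alpha lay primers, the clamp Pcna tethers polymerases delta and epsilon, and ribonucleotide reductase and thymidylate synthase keep deoxynucleotides coming. Many of these genes are known targets of the E2F transcription factors, and their transcripts are abundant in dividing progenitors and scarce in neurons.

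Replication genes read higher in LIN28A cells than in control cells by a small amount that most of them shared, although no single gene passed the test. The mean log2 difference, LIN28A minus control on the log2(intensity + 16) scale, was above 0 for 39 of 41 genes, against 45.1% of the 8930 genes tested. It had a median of 0.34, or 1.27-fold, against -0.04 over all genes tested. Within number 1 the median was 0.34 and within number 2 it was 0.38, against -0.08 and 0.01 over all genes. The difference was above 0 within both numbers for 36 genes (87.8%, against 25.7% of all genes tested), and below 0 within both for 0. For 21 genes neither LIN28A array overlapped the controls and both were higher (51.2%, against 11.5%), and for 0 genes both were lower, against 16.6%. A difference of at least 0.5 within each number was seen for 5 genes (12.2%, against 1.44%), namely Cdc45, Pola1, Rrm1, Rrm2 and Ccne1. All 41 genes lay over the filter on low values.

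limma's test with Benjamini-Hochberg adjustment called 0 of the 41 genes at an adjusted p under 0.05, as it called 0% of all genes tested. At an unadjusted p under 0.05 it gave 0 of the 41, against 0.493% of all genes on the higher side. The smallest unadjusted p among the members was 0.068, for Pola1, and their standard errors ran from 0.28 to 0.47 on the log2 scale. That fit left the replicate number out, so the standard errors hold the shift between numbers. With the number as a block, limma gave 11 of the 41 an unadjusted p under 0.05 on the higher side. The share of all genes was 3.09%, and 0 members passed after adjustment. The median was 0.32 under quantile normalization and 0.47 under median centring, where the median of all genes moved to 0.01 and 0.09. The distance between the members and all genes was therefore 0.38 as deposited, 0.31 and 0.38. The median was 0.22 without LIN28A replicate 1. The count of 21 became 39 without control replicate 1 and 36 without LIN28A replicate 2, where 1 array fewer has to be cleared. The share of all genes was not counted there.

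**Figure D1:**
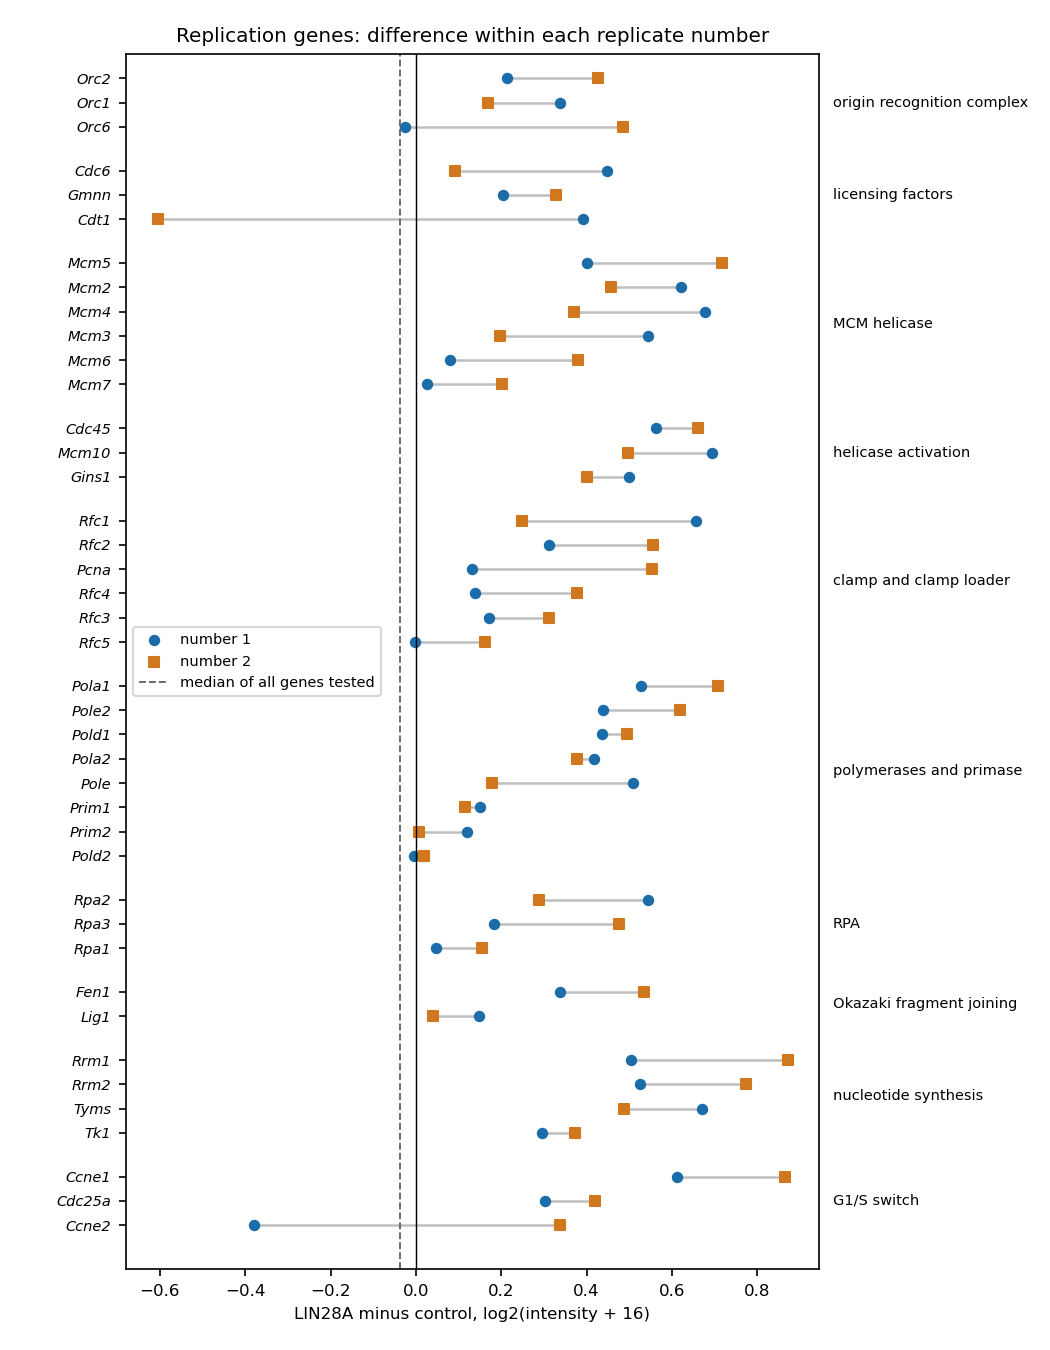
LIN28A minus control on the log2(intensity + 16) scale for each of the 41 measured genes, grouped by role, with circles for number 1 and squares for number 2; the dashed line is the median of all genes tested (-0.04). Most points lie right of 0, Cdt1 and Ccne2 have points far apart on opposite sides of it, and Orc6, Rfc5 and Pold2 have their number 1 point just below it.

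The numbers mattered for the level of these genes. Array number 2 lay below number 1, averaged over the lines, for 32 of the 41 genes, with a median of -0.28 on the log2 scale against 0.04 over all genes tested. The 20 genes whose arrays overlapped between the lines had a median shift between numbers of -0.48 and a median difference between lines of 0.24, and 15 of them were still above 0 within both numbers. The 21 genes whose arrays did not overlap had a shift of -0.10 and a difference of 0.45. Overlap is set by both quantities, so these medians describe the split and test nothing. Over the 4 arrays the median intensity ran from 29.0 to 38.6, and 35.7% to 42.3% of probe sets read under 16. The 3' to 5' ratio of the beta-actin control probe sets was 4.71 on control 1 and 2.76 to 3.37 on the others. An 18S control probe set read 331 (control) and 146 (LIN28A) on number 1, against 13.5 and 13.2 on number 2. A BioB control probe set read 344 and 176 on number 1, against 111 and 107 on number 2. The part of these quality values in the differences was not tested.

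**Figure D2:**
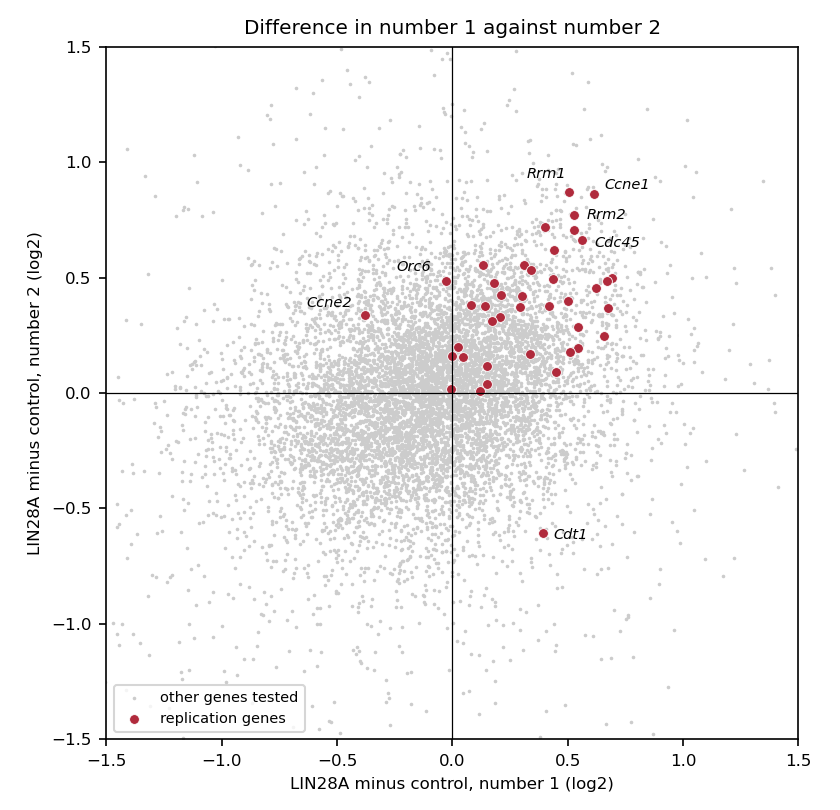
LIN28A minus control within number 1 (x axis, log2) against number 2 (y axis, log2), with replication genes in red and the other genes tested in grey; 125 grey genes lie beyond the axis limits of 1.5. Of the 41 red points, 36 lie above 0 on both axes, and Cdt1 is the one below 0 on the y axis.

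The start sites of these genes were searched for the letters that E2F binds, as a description with no test. Many of these genes are known E2F targets, so the share with a match speaks of the list and not of these arrays. RefSeq promoter windows of 300 bases (GRCm38.p6, 250 before the start site and the rest after it) were matched for 34 members, in 40 windows. On either strand, 13 windows (32.5%) held TTTCCCGC, TTTGGCGC, TTTCGCGC or TTTGCCGC, against 2.26% of 32851 windows of all genes; base composition was not matched. CCAAT, which NF-Y binds, was in 60.0% against 37.4%, and TTTGAA, the CHR element of late cell cycle genes, was in 10.0% against 17.9%. Members with an E2F match had a median difference of 0.27 over 13 genes, and the 21 without one had 0.40, which was not tested. A match is a run of letters and no proof of binding, and the absence of one says nothing about E2F. The 250 bases before the start site follow, 5′ to 3′ along each gene's own strand, for the 4 genes that hold a match there and have their array values given below, with the matches in capitals. Cdc25a, Mcm6, Orc1 and Rfc3 hold matches before the start site too. The printed stretches set the element beside each gene's difference at its brightest probe set: Pola1 (chrX:93632156-93632405, minus strand) and Mcm5 (chr8:75109259-75109508, plus strand) differed by 0.62 and 0.56 between the lines, and Cdc6 (chr11:98907901-98908150, plus strand) and Mcm7 (chr5:138171884-138172133, minus strand) by 0.27 and 0.11. In Mcm5 the matches at -153 and -149 from the start site overlap each other, on opposite strands. The letters matched are TTTGGCGC in Pola1, TTTCGCGC and TTTGGCGC in Mcm5, and TTTCCCGC in Cdc6 and Mcm7, and no difference between these genes was tested.
Pola1: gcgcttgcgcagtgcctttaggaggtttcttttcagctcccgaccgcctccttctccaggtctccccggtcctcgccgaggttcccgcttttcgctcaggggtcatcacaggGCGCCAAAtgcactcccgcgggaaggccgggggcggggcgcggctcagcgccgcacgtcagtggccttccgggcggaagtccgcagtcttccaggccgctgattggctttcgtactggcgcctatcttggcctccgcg
Mcm5: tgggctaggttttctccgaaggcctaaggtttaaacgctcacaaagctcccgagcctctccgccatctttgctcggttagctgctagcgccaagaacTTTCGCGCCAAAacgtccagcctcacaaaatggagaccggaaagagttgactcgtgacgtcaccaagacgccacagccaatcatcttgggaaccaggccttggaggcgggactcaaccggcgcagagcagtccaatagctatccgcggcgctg
Cdc6: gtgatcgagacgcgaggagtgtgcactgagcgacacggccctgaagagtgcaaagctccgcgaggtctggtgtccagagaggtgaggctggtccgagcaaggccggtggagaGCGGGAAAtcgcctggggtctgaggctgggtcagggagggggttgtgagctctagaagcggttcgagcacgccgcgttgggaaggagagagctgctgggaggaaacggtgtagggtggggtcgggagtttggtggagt
Mcm7: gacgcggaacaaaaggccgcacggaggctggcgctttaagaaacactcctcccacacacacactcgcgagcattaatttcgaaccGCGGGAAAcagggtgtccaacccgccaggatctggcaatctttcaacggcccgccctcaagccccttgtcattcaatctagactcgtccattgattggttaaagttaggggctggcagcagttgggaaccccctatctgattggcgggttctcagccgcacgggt

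The origin recognition complex and the licensing factors had median differences of 0.25 and 0.27, beside 0.34 over all 41 genes. Differences between role groups were not tested. Orc2, a core subunit of the complex, read 164 and 159 on the control arrays and 192 and 219 on the LIN28A arrays (log2 difference 0.32 ± 0.28 SE). Both LIN28A arrays of Orc2 lay above both controls, as did those of Orc1, an ATPase subunit (0.25). Orc6 read 441 and 276 in control cells against 433 and 392 with LIN28A. Its lines overlapped, its difference was -0.03 within number 1 and 0.48 within number 2, and it turned to -0.09 without control replicate 2. Cdc6, the ATPase that recruits the helicase, read 240.4 and 254 in control cells against 334 and 272 with LIN28A (0.27 ± 0.29 SE). Its separation rested on a narrow margin in number 2, where the difference was 0.09, and its mean was 0.13 with LIN28A replicate 1 left out.

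Cdt1 did not follow the other genes. It read 1418 and 1729.8 on the control arrays and 1866 and 1131 on the LIN28A arrays. LIN28A was thus higher in number 1 (0.39) and lower in number 2 (-0.61), and the mean of -0.11 ± 0.35 SE was 0.02 under median centring. A second Cdt1 probe set had the same pattern, with 0.22 and -0.65 in numbers 1 and 2. Geminin, the Cdt1 inhibitor encoded by Gmnn, read 1061 and 606.5 in control cells against 1226 and 766 with LIN28A, with 0.20 and 0.33 within the numbers.

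All 6 subunits of the MCM helicase lay above 0 within both numbers, with a median of 0.45. Mcm5 was the subunit with the largest difference and read 521 and 368 in control cells against 693 and 616 with LIN28A (0.56 ± 0.31 SE, and 0.32 with control replicate 2 left out). Mcm2, Mcm3 and Mcm4 differed by 0.54, 0.37 and 0.52, and like Mcm5 read higher on both LIN28A arrays than on either control array. The lines overlapped for Mcm6 (0.23) and Mcm7. Mcm7 read 3710 and 2199 in control cells against 3779 and 2530.0 with LIN28A (0.11 ± 0.39 SE) at its brightest probe set. Leaving out control replicate 2 gave -0.26, and leaving out LIN28A replicate 1 gave -0.17. Its other 3 probe sets differed by 0.40, 0.44 and 0.40, so the low value belonged to that probe set alone and not to each Mcm7 measurement.

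The genes that turn the loaded helicase into an active one had some of the larger and more even differences. Cdc45, which joins the helicase at the fork, read 141 and 119 in control cells against 216 and 197.5 with LIN28A. That is 0.56 within number 1 and 0.66 within number 2 (mean 0.61 ± 0.28 SE, unadjusted p = 0.075 by limma). Mcm10, which helps fire the assembled helicase, differed by 0.69 and 0.50 within the numbers. Gins1, a subunit of the GINS complex, read 275 and 236 in control cells against 395 and 316 with LIN28A (0.45 ± 0.29 SE, and 0.30 with LIN28A replicate 1 left out). None of these 3 genes overlapped between the lines at the brightest probe set.

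**Figure D3:**
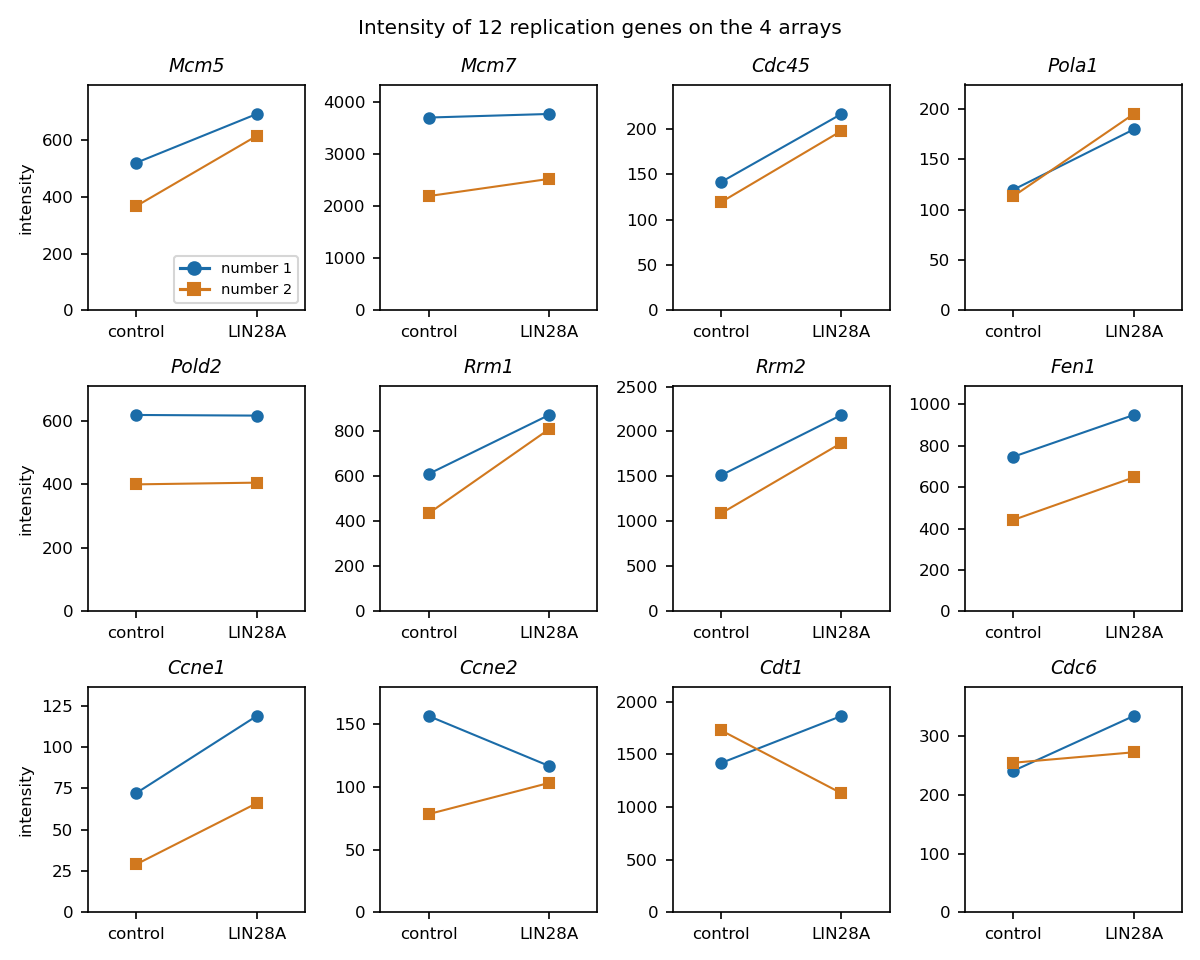
Intensity of 12 of the genes on the 4 arrays, each panel with its own axis from 0; circles joined by a line are number 1 and squares number 2. Cdc45, Pola1, Rrm1 and Rrm2 lie higher with LIN28A in both numbers, Pold2 lies level, and the lines of Cdt1 and of Ccne2 run in opposite directions.

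The sliding clamp and its loader lay above 0 with uneven sizes. Pcna, the clamp itself, read 3189 and 1891 in control cells against 3493 and 2782 with LIN28A, with 0.13 within number 1 and 0.55 within number 2. Rfc1, the large subunit of the clamp loader, read 262.5 and 289.9 in control cells against 423 and 348 with LIN28A (0.45 ± 0.29 SE). It was the member of this group with separate lines at the brightest probe set. Of its other probe sets over the filter, 1 differed by 0.63 and 0.15 in numbers 1 and 2, and the dimmest by 1.19 and -1.08. Rfc2, Rfc3 and Rfc4 differed by 0.43, 0.24 and 0.26 with overlapping arrays at the brightest probe set. The second Rfc3 probe set differed by 0.31 with separate lines. Rfc5, a small subunit, read 513 and 395 in control cells against 513 and 444 with LIN28A (0.08 ± 0.30 SE). Leaving out control replicate 2 turned it to -0.10, and leaving out LIN28A replicate 1 to -0.02.

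Polymerase and primase genes had differences from 0.01 to 0.62, with a median of 0.37. Pola1, the catalytic subunit of the priming polymerase alpha, read 119.8 and 113 in control cells against 179.8 and 195 with LIN28A, or 0.53 and 0.71 within the numbers (mean 0.62 ± 0.28 SE). Its arrays of the same line lay close together, with a shift between numbers of 0.02. Its partner Pola2 differed by 0.40, and the leading-strand polymerase genes Pole and Pole2 by 0.34 and 0.53, all with separate lines. Pold1, the catalytic subunit of the lagging-strand polymerase delta, differed by 0.47 with overlapping arrays at its brightest probe set. The second Pold1 probe set differed by 0.32 with separate lines. The accessory subunit gene Pold2 read 618 and 399.5 in control cells against 616 and 405 with LIN28A, a difference of 0.01 ± 0.37 SE that was -0.04 under quantile normalization. The primase subunits Prim1 and Prim2 differed by 0.13 and 0.06, and although Prim2 counted among the 21 genes with separate lines, its difference in number 2 was 0.01. Whether Pola1 differed from Pold2 in its response was not tested.

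RPA coats the single strands that the helicase exposes, and Fen1 and Lig1 trim and seal the lagging-strand fragments. Rpa2 read 319 and 252 in control cells against 472 and 311 with LIN28A (0.42 ± 0.34 SE), which became 0.13 with LIN28A replicate 1 left out and 0.71 with LIN28A replicate 2 left out. Rpa1, the largest subunit, read 891 and 685 in control cells against 921 and 764.5 with LIN28A (0.10 ± 0.30 SE), and turned to -0.09 without control replicate 2 and -0.03 without LIN28A replicate 1. Rpa3 differed by 0.33, with a shift between numbers of -0.91, the widest of the 41 genes. Fen1, the flap nuclease, read 747 and 442 in control cells against 949 and 647.5 with LIN28A (0.44 ± 0.38 SE). Its value ran from 0.07 with control replicate 2 left out to 0.81 with control replicate 1 left out. The ligase gene Lig1 read 504 and 571 in control cells against 559.8 and 588 with LIN28A (0.09 ± 0.28 SE, and 0.01 with control replicate 1 left out). In none of these 5 genes were the lines separate at the brightest probe set, since each LIN28A group held an array below a control array. The second Fen1 probe set differed by 0.25 with separate lines.

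Nucleotide supply genes had the largest group median, 0.61, and all 4 had separate lines. Rrm1, the large subunit of ribonucleotide reductase, read 608 and 433.5 in control cells against 869 and 806 with LIN28A, with 0.50 and 0.87 within the numbers (mean 0.69 ± 0.31 SE). Rrm2, the small subunit whose level is tied to S phase, read 1512 and 1088.5 in control cells against 2184 and 1872 with LIN28A, with 0.53 and 0.77 (mean 0.65 ± 0.31 SE). Both subunits of the enzyme thus lay at least 0.5 above control within each number, and with control replicate 2 left out they differed by 0.45 and 0.42. The other Rrm2 probe sets differed by 0.83 and 0.71, and the second Rrm1 probe set by 0.33 with overlapping lines. Tk1, the salvage thymidine kinase, read 282 and 240.1 in control cells against 350.0 and 316 with LIN28A (0.33 ± 0.28 SE). Tyms, thymidylate synthase, was the dimmest member and read 15.1 and 27.8 in control cells against 33.5 and 45.4 with LIN28A. At that brightness the added 16 shrinks its difference, which was 0.58, and no detection call was available to set it against background.

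The G1/S switch genes included the largest mean difference on the log2(intensity + 16) scale and 1 of the 2 below 0. Ccne1, cyclin E1, read 72.2 and 29.1 in control cells against 119 and 66.1 with LIN28A, with 0.61 and 0.86 within the numbers (mean 0.74 ± 0.45 SE). Its lines nevertheless overlapped, since number 2 lay 0.84 under number 1. The value fell to 0.25 when control replicate 2 was left out and reached 1.22 when control replicate 1 was, and with pseudocount 64 it was 0.45, below Rrm1 and Rrm2 at 0.64 and 0.63. Ccne2, cyclin E2, read 157 and 78.4 in control cells against 117 and 103 with LIN28A, so LIN28A was lower in number 1 (-0.38) and higher in number 2 (0.34). The mean of -0.02 ± 0.38 SE was 0.11 under median centring and 0.42 without control replicate 1. Cdc25a, the phosphatase that frees cyclin-dependent kinases, differed by 0.30 and 0.42 and had separate lines, and its second probe set differed by 0.28.

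Second and further probe sets gave another reading of the same genes on the same arrays. There were 32 of them for 22 genes, 28 over the filter, and 24 of these 28 had the sign of the brightest one. Their median difference was 0.32. The probe sets over the filter that went the other way were dim ones of Mcm10 (-0.22), Orc2 (-0.13) and Mcm3 (-0.01), and a probe set of Prim2 (-0.07). Under the filter, the further probe sets of Pola2 (-0.32) and Tyms (-0.14 and -0.03) went the other way too, and a Cdt1 probe set (-0.04) kept the sign. Mcm2 was among the most even, with 0.54 and 0.50 at its 2 probe sets, both with separate lines.

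**Figure D4:**
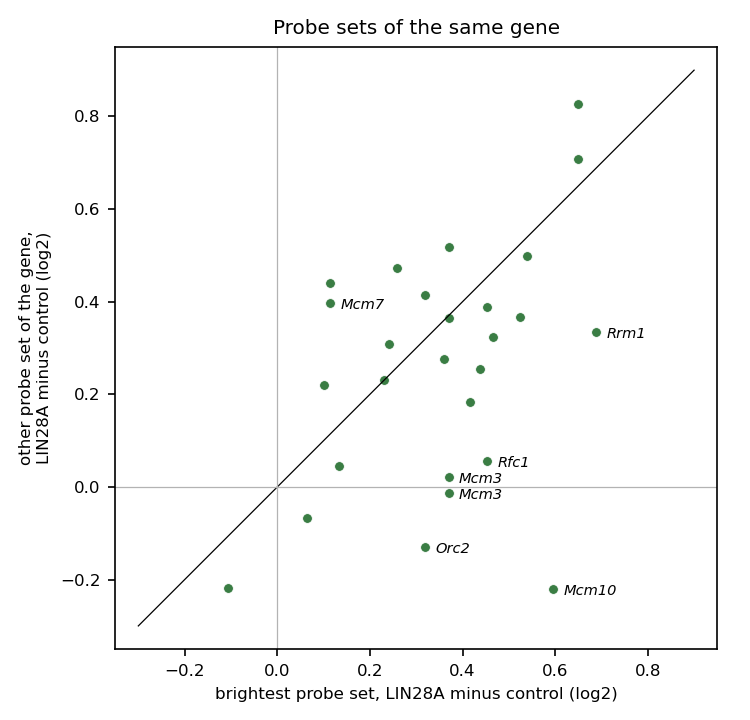
LIN28A minus control (log2) at the brightest probe set of a gene (x axis) against each further probe set of that gene over the filter (y axis); the diagonal marks equal values. The Mcm7 probe sets lie above the diagonal, and the labelled points of Mcm10 and Orc2 lie below 0 on the y axis.

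The rest of the pathway was read from lists outside the 42. Of 86 such genes 68 were measured, with a median of 0.21. Within both numbers, 42 of the 68 lay above 0, against 25.7% of all genes tested, and 6 below 0, against 2914 of 8930. limma called 0 of the 68 at an adjusted p under 0.05. At an unadjusted p under 0.05 it gave 1 of the 68 on the higher side, Dut (0.047), against 44 of all 8930 genes. On the lower side it gave 1 of the 68, Pold4 (0.031), against 120 of 8930. Chromatin assembly genes at the fork had a median of 0.35 and 8 of 9 above 0 within both numbers. Nasp, a histone chaperone, read 924 and 768 in control cells against 1512 and 1259 with LIN28A (0.70), Asf1b, another histone chaperone, differed by 0.62, and the smallest values there were 0.10 for Asf1a and 0.31 for Hat1.

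Further replication machinery had a median of 0.25 over 22 genes, with 17 above 0 within both numbers. The helicase-nuclease gene Dna2 and the clamp loader gene Chtf18 had the largest values, 0.57 each. Pold4, the smallest polymerase delta subunit, read 42.4 and 50.6 in control cells against 18.9 and 21.0 with LIN28A (-0.80), the reverse of Pold1, and Mcm9 lay under the filter (-0.10). Nucleotide supply beyond the 4 members had a median of 0.13 over 27 genes, with 11 above 0 within both numbers and 4 below. Dut, the dUTPase, read 523 and 314 in control cells against 826 and 700.2 with LIN28A (0.88), and Samhd1, which breaks deoxynucleotides down, differed by 0.67. At the low end were the folate enzyme genes Shmt1 (-0.46) and Shmt2 (-0.36), and Shmt2 was 0.84 in number 1 and -1.55 in number 2. E2F and pocket protein genes had a median of 0.15 over 10 genes. E2f8, a repressor of the family, differed by 0.50 and E2f1, an activator, by 0.42, of which 0.83 was in number 1 and 0.01 in number 2. E2f3 and Rbl2 had the lowest values, -0.11 and -0.07.

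Markers of cell state differed between the lines as well. Of 11 measured mitosis genes 10 lay above 0 within both numbers and their median was 0.47, beside 0.34 for the members. Top2a is in this list and among the other pathway genes. Of all 8930 genes tested, 2297 lay above 0 within both numbers and 2914 lay below 0 within both. All 15 neuron markers lay below 0, 12 of them within both numbers, with a median of -0.53. Their summed intensity was 5340 and 8302 in control cells against 3042 and 5735 with LIN28A, and Rbfox3, a marker of mature neurons, read 5.70 to 11.5 on the 4 arrays. Neural progenitor markers went 0.39 in number 1 and -0.48 in number 2 by median, with a summed intensity of 8747 to 10907 in control and 7712 to 9550 in LIN28A cells. Of these 11 markers 6 had a mean difference above 0. Sox2 at 1295 to 1902 and Vim at 2983 to 4165 were bright on every array. Both were lower with LIN28A, by -0.34 and -0.31, with separate lines. Hes5 went the other way with separate lines, and read 186 and 194 in control cells against 924 and 337 with LIN28A (1.48). The 10 markers of undifferentiated embryonal carcinoma had a median of -0.20, and 3 of them lay above 0. Their summed intensity was 255 and 458 in control cells against 108 and 948 with LIN28A. Most of the number 2 sums was Pou5f1, at 374 and 775, against 30.3 and 28.7 on number 1. Nanog read 70.8 and 5.70 in control cells against 10.4 and 37.8 with LIN28A, and Zfp42 read 0.20 to 5.80. Utf1 was higher with separate lines (0.65) and read 5.50 and 3.80 in control cells against 16.4 and 16.5 with LIN28A. The 3 markers that were lower with separate lines, Fgf4, Esrrb and Dppa4, read 30.9 or less on every array, and Dppa4 lay under the filter. Over all genes tested, 11.5% were higher and 16.6% lower with separate lines. Fibroblast and smooth muscle markers summed to 304 and 151.5 in control cells against 338 and 519 with LIN28A, and 9 of the 10 lay above 0, 5 of them within both numbers, with a median of 0.31. Only 6 of the 10 passed the filter on low values. Cnn1 and Postn, which count among those 5, lay under it, as did Thy1, and Tagln read 0.50 to 15.9. Col3a1 read 48.3 and 10.9 in control cells against 70.2 and 147.9 with LIN28A (1.52), Acta2 differed by 0.91 with separate lines, and Col1a1, under the filter, read 3.40 to 10.5. The part of these cell type markers in the replication gene differences was not tested.

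**Figure D5:**
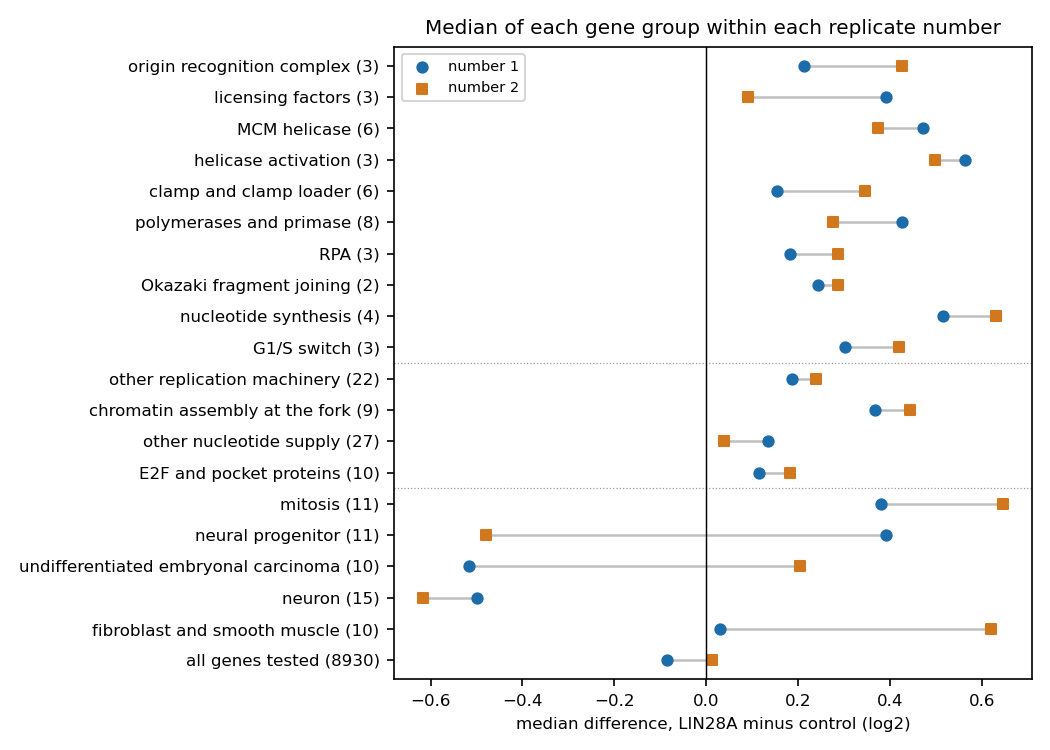
Median LIN28A minus control difference (log2) of each group within number 1 (circles) and number 2 (squares), with the number of measured genes in brackets; the top block holds the 41 members, the middle one other pathway genes, and the bottom one marker lists and all genes tested. All 10 member groups lie above 0 in both numbers, neuron markers lie below 0 in both, and neural progenitor and embryonal carcinoma markers change sign between them.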

How the data were processed

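RNA of 4 arrays, 2 of each line, was analysed from the 22690 probe sets of the table that the authors deposited, whose values are linear intensities. Labels name no software for summarising or scaling them. Trimmed means (2% off each end) were 150.1 on each array, so nothing further was normalized. The members and lists were chosen with earlier results of these data known. Values became log2(value + 16), which understates the change of low genes. The 64 control probe sets and those under the 30th percentile of mean log2 value (linear 8.04) were removed, which left 15838 probe sets and 8930 genes. limma 3.58.1 in R 4.3.3 (lmFit, eBayes, no trend, no block) compared the lines, with Benjamini-Hochberg adjustment over all probe sets at 0.05; the code was tested on simulated data. Exact permutation of 2 against 2 cannot give a p under 0.333, so none was run. By rule, array values were given for the genes with the largest and smallest difference of each role group, those separate and at least 0.5 in both numbers, and those changing sign with 0.3 or more in either; of other pathway lists, the 2 genes at each end were named. Array values of Pcna, Gmnn and Tyms, and the markers named, were picked after their values were seen. Alternatives were pseudocounts 1 and 64, other normalizations, filters and probe sets, eBayes trend, a replicate block and leaving out each array. The number of arrays limits the precision.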

Additional observations from a re-analysis of the deposited data

How the results depend on the processing

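Of the members, limma called 0 at an adjusted p under 0.05 under every setting that gave a test; averaged probe sets gave none. At an unadjusted p under 0.05, with no block and 2 arrays a line, it gave 4 members with pseudocount 64 and 3 with no filter. It gave 2 with quantile normalization and 1 with median centring, each higher, and 0 in the other such settings with a test. The share of all genes was counted for the main setting alone (0.493% on the higher side, with 0 members). Whether these counts exceed the share in their own setting was therefore not assessed. The median difference of 0.34 stayed above 0 in every setting. It moved to 0.29 with pseudocount 64, 0.47 with median centring and 0.30 when a gene's probe sets were averaged, and ran from 0.22 to 0.47 without 1 array. The count of 21 genes with both LIN28A arrays above both controls became 7 of 20 genes at the second brightest probe set, and 22 to 39 without 1 array, where fewer arrays have to be cleared. The share of all genes was not counted in these settings, and the 11.5% of the main setting does not carry over to them. Single genes changed sign as follows. Pold2 was -0.045 under quantile normalization, with or without the block, and ran from -0.30 to 0.31 without 1 array. Cdt1 was 0.020 with median centring and -0.46 to 0.25 without 1 array. Ccne2 was 0.11 with median centring and -0.46 to 0.42 without 1 array. Without 1 array, Orc6 ran from -0.095 to 0.55, Mcm7 ran from -0.26 to 0.49, Rfc5 ran from -0.10 to 0.26, and Rpa1 ran from -0.086 to 0.29. The cause was not tested. Leaving out 1 array lets part of the gap between numbers enter. The array left alone in its line is then assumed to vary like the other line. The labels give the arrays only a shared number; arrays of one number shifted alike (r = 0.62 over probe sets). With the replicate block, the lowest adjusted p among the members was 0.55, 0 members were called, and 11 members on the higher side and 0 on the lower had an unadjusted p under 0.05, against 3.09% of all genes on the higher side; the median stayed 0.34 and the count 21.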
